A study of Cucumis melo with 9 samples.

Results

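The 6 genes described here encode enzymes that take amino acids into aroma formation in melon fruit. They are the branched-chain aminotransferase CmBCAT1 (MELO3C010776.2), the aromatic aminotransferase CmArAT1 (MELO3C025613.2), the amino acid decarboxylase CmAADC1 (MELO3C008357.2), the methionine gamma-lyase CmMGL (MELO3C013774.2), and 1 further transaminase of each class, MELO3C030975.2 (BCAT) and MELO3C013583.2 (ArAT). They were taken by gene identifier from those that the study named in the amino acid route to aroma volatiles, and make up 6 of the 29980 genes in the table. All 6 passed the filter on low values, which left 15022 genes.

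RNA was sequenced from ripe, greenhouse-grown fruit of the oriental melon 'HT', in 9 libraries of 3 groups. Group A (recovered) spent 7 d at 4°C and then 1 d at about 22°C, group B (chilled) stayed at 4°C for 8 d, and group C (unchilled) was picked on day 8, which was 8 d later than the other fruit. Each group had 3 replicates of 3 pooled fruits, and the labels describe groups A and B as free of chilling injury. Storage and harvest date therefore cannot be told apart wherever group C is compared, and the data come from 1 cultivar. Chilled against unchilled and recovered against chilled fruit share the chilled libraries. All 3 groups are ripe melon fruit, and no group was sampled before storage.

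Library totals were between 15508367 and 19011486 counts. Markers of ripe climacteric flesh were present in every group: mean levels in unchilled, chilled and recovered fruit were 1242, 545 and 1462 for CmACO1, an ethylene-forming oxidase, 2057, 313 and 2459 for CmAAT1, an alcohol acyltransferase that makes esters, and 806, 25.6 and 1125 for CmNOR, a ripening transcription factor. Levels here are FPKM (counts per gene length and library total) divided by the library's TMM factor, a scaling that evens out differences in RNA composition between libraries. As further markers of ripe flesh, 126 genes described as polygalacturonase, phytoene synthase or expansin were summed (60 without a count). Their summed level was 1494 to 1916 in unchilled, 358 to 418 in chilled and 858 to 1005 in recovered libraries. Summed levels of markers of other tissues differed between the groups as well, some with ranges that overlapped. The summed level of 92 genes of green tissue (23 without a count) was 22699 to 32162, 9401 to 10976 and 9548 to 13014 in the same order, that of 30 genes of the fruit surface (2 without a count) 1164 to 3821, 426 to 864 and 529 to 1217, that of 28 phloem genes (9 without a count) 302 to 554, 237 to 318 and 81.4 to 111, and that of 50 seed storage genes (26 without a count) 91.5 to 110, 145 to 182 and 45.7 to 53.7. Genes within a list did not all move alike. In chilled against unchilled fruit, 5 of 26 tested flesh genes were called higher and 17 lower (thresholds given below). For green tissue these were 7 and 22 of 58, and for the surface 0 and 8 of 19. Phloem gave 4 and 5 of 10 and seed 3 and 2 of 8, beside 22.1% and 26.2% of all tested genes. The part of these marker shifts in the values below was not tested. In RNA from pooled fruit, fewer cells of a type and less RNA per cell cannot be told apart.

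Much of the scent of a ripe melon is built from amino acids. An aminotransferase moves the amino group of an amino acid to a keto acid acceptor, and the keto acid left behind can be shortened to an aldehyde, reduced to an alcohol and joined to an acyl group as an ester. Branched-chain aminotransferases (BCATs) act on leucine, isoleucine and valine, aromatic aminotransferases (ArATs) on phenylalanine, tyrosine and tryptophan, whereas amino acid decarboxylases remove the carboxyl group and leave an amine. Methionine gamma-lyase splits methionine into methanethiol, ammonia and a keto acid, methanethiol being a source of the sulfur volatiles of melon. All of these enzymes use pyridoxal phosphate as cofactor, and most of the reactions catalysed by the aminotransferases can run in either direction.

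Among the 6 genes, 3 followed the course low in chilled and high in recovered fruit, 2 followed the opposite course, and CmMGL was called in no comparison. CmBCAT1, CmArAT1 and CmAADC1 were below unchilled fruit when chilled, and higher after the day at about 22°C. The other BCAT and the other ArAT were higher in chilled fruit than in either other group, although their calls rest on the scaling. Thus among these 6 the pair of genes from each class of aminotransferase moved in opposite directions. The 2 further BCAT genes that the study named were, like CmBCAT1, called lower in chilled than in unchilled fruit, MELO3C007664.2 only narrowly. Between chilled and unchilled fruit, 5 of the 6 were called (2 higher and 3 lower; called means past 1 on the log2 scale with a Benjamini-Hochberg adjusted p under 0.05 in edgeR's quasi-likelihood test), beside 48.3% of all tested genes, 22.1% higher and 26.2% lower. Between recovered and chilled fruit, 5 were called (3 higher and 2 lower), beside 50.4% of tested genes, 25.1% higher and 25.3% lower. Between recovered and unchilled fruit, 1 was called, CmBCAT1, beside 12.8% of tested genes, 3.66% higher and 9.15% lower. Libraries did not overlap for 6, 5 and 2 of the 6 genes in these comparisons, beside 78.3%, 79.9% and 52.9% of tested genes. The study named these genes from the same libraries, so the counts are not independent of its choice. With this few genes, and about every other gene called in both comparisons with chilled fruit, the counts themselves do not set these 6 apart. The account below rests on the levels of each.

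**Figure D1:**
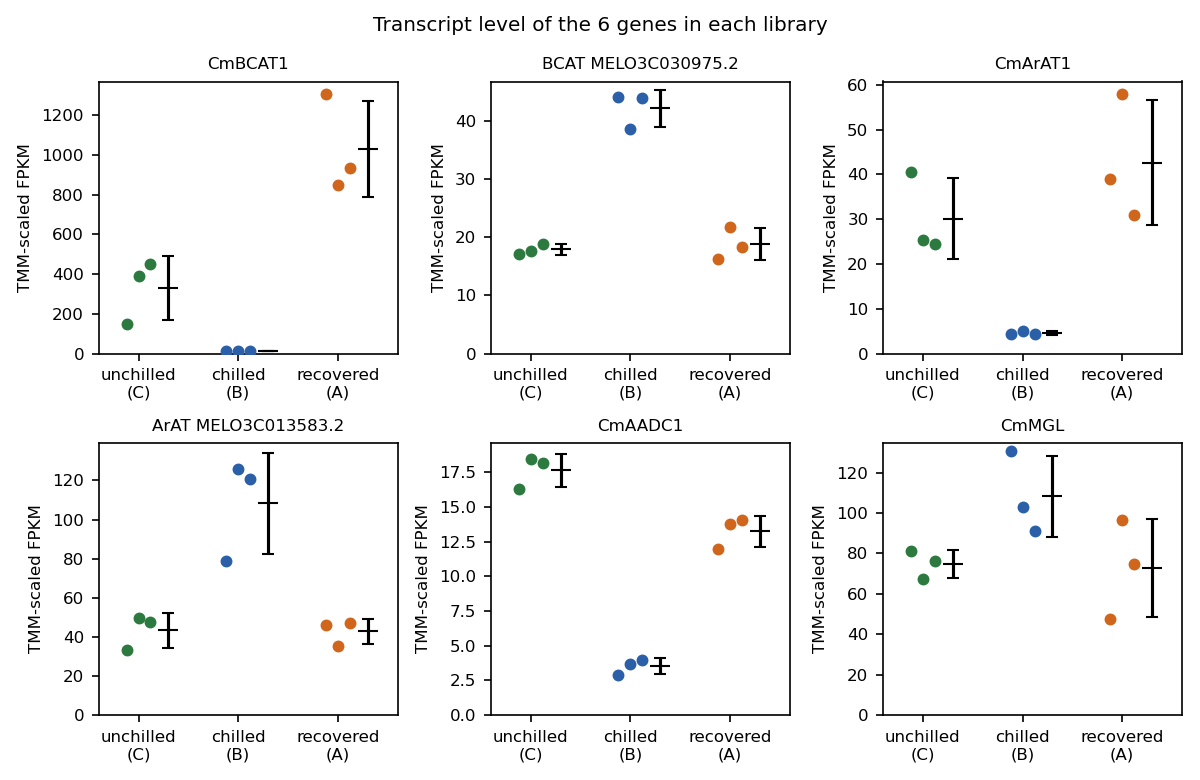
Level of each of the 6 genes (TMM-scaled FPKM, linear axes that differ between panels) in the 9 libraries, with unchilled (C), chilled (B) and recovered (A) fruit side by side. Points are libraries and the bar and whiskers are the mean and SD of 3. CmBCAT1 ran from 11.8 in a chilled to 1306 in a recovered library, whereas CmMGL stayed between 47.7 and 130.5.

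CmBCAT1 lies on chromosome 3 from 30937275 to 30942119 on the minus strand, with an exonic length of 1930 bases, and is described in the table as a branched-chain-amino-acid aminotransferase. Its level was 147, 389 and 451 in unchilled replicates 1 to 3, 12.2, 13.3 and 11.8 in chilled replicates, and 1306, 851 and 936 in recovered replicates. The 3 groups did not overlap, and the chilled libraries lay close together (12.4 ± 0.741, SD, n = 3) while the unchilled ones spread widely (329 ± 161), replicate 1 being the low library. In chilled fruit the gene was 26.5-fold lower than in unchilled fruit (log2 fold change -4.73, SE 0.425, adjusted p 1.17e-05, edgeR quasi-likelihood test with Benjamini-Hochberg adjustment). Its change ranked at percentile 1.08 of all tested genes in that comparison.

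After 1 d at about 22°C the CmBCAT1 level was 82.9-fold above that of chilled fruit (log2 fold change 6.37, SE 0.458, edgeR adjusted p 2.62e-06), at percentile 99.6 of tested genes. It also exceeded unchilled fruit by 3.13-fold (log2 fold change 1.65, SE 0.369, 95% interval 0.80 to 2.49, edgeR adjusted p 0.0095). Leaving out 1 library at a time moved that difference between 1.28, without unchilled replicate 1, and 1.94, and the call held each time. By mean level CmBCAT1 ranked 160 of the 15022 tested genes in unchilled fruit, 7369 when chilled and 30 after recovery. It took 0.0315 to 0.0984% of all counts in unchilled libraries, 0.0018 to 0.0021% in chilled and 0.186 to 0.282% in recovered ones.

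The table holds 316 genes described as aminotransferases, of which 46 were tested. Among these, CmBCAT1 had the highest mean level in unchilled and in recovered fruit and ranked 26 in chilled fruit. It made up 7.89 to 20.3% of the summed level of the list in unchilled libraries, 0.584 to 0.670% in chilled and 32.1 to 42.8% in recovered libraries. In chilled fruit the highest aminotransferase was instead an alanine:glyoxylate aminotransferase (MELO3C015151.2), an enzyme known from photorespiration in Arabidopsis, at 120 ± 10.5 in unchilled fruit, 331 ± 26.6 when chilled and 169 ± 25.7 after recovery. The rise of this gene in chilled fruit (log2 fold change 1.47, SE 0.125, edgeR adjusted p 4.32e-06) fell under the fold threshold when libraries were scaled by their totals.

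The BCAT MELO3C030975.2 lies on chromosome 4 from 28830018 to 28838794 on the plus strand. Its exonic length is 423 bases within a span of 8777, and it carries transaminase terms but no KEGG entry in the table, so that its model is short for a whole aminotransferase. Counts were between 125 and 282. Levels were 17.1, 17.6 and 18.9 in unchilled, 44.0, 38.5 and 43.8 in chilled and 16.3, 21.8 and 18.4 in recovered replicates. All chilled libraries lay above all others, and unchilled and recovered libraries overlapped. The log2 fold change was 1.23 for chilled against unchilled (SE 0.144, edgeR adjusted p 3.69e-05), -1.16 for recovered against chilled (SE 0.143, edgeR adjusted p 5.04e-05), and 0.07 for recovered against unchilled fruit (95% interval -0.25 to 0.40, edgeR adjusted p 0.727).

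These calls depend on the scaling. With library totals in place of TMM factors, the median over all tested genes (log2 fold change, chilled against unchilled fruit) was -0.56 in place of -0.06. In recovered against chilled fruit it was 0.49 in place of -0.02, and it stayed near 0 in recovered against unchilled fruit. MELO3C030975.2 then stood at 0.73 and -0.66, in the same directions and without a call. For chilled against unchilled fruit, library totals gave 2241 calls upward and 5688 downward, against 3318 and 3931 with TMM. For recovered against chilled fruit, they gave 5472 upward and 2584 downward, against 3778 and 3798. CmBCAT1 kept its calls with either scaling, at -5.23, 6.88 and 1.65 under library totals.

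The study named 2 more BCAT genes in this route. MELO3C007664.2, on chromosome 8, had a level of 28.2 ± 5.55 in unchilled fruit, 13.8 ± 2.31 when chilled and 19.5 ± 4.25 after recovery. Its log2 fold change was -1.03 for chilled against unchilled fruit (edgeR adjusted p 0.00114), just past the threshold. Without unchilled replicate 1 it was -0.88 and not called. The call was also lost without chilled replicate 1, with DESeq2 and with the size factors of DESeq2 in edgeR. MELO3C025614.2, on chromosome 7, is called BCAT-like in the table, but its KEGG entry (K18482) and GO terms are those of an aminodeoxychorismate lyase, an enzyme of folate synthesis. Its levels were 2.38 ± 0.288, 0.801 ± 0.252 and 3.32 ± 0.440, with log2 fold changes of -1.57 in chilled against unchilled fruit (edgeR adjusted p 0.000365) and 2.05 in recovered against chilled fruit (edgeR adjusted p 5.4e-05).

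Since FPKM is per length, the levels of the 4 BCAT genes can be added within a library. The share of CmBCAT1 in their sum was 73.2, 90.0 and 90.3% in unchilled, 17.96, 19.6 and 16.4% in chilled and 97.3, 94.5 and 95.9% in recovered replicates. In chilled fruit the share of MELO3C030975.2 per length was 64.7, 57.1 and 60.9%, which rests on its model of 423 bases. In read counts CmBCAT1 stayed above it in every chilled library, with 290, 322 and 347 against 229, 205 and 282. The share of CmBCAT1 differed by -66.5 percentage points between chilled and unchilled, by 77.9 between recovered and chilled and by 11.4 between recovered and unchilled fruit, with no overlap of libraries. Without unchilled replicate 1 the last of these was 5.77. The two-sided exact permutation p was 0.1 each time, the smallest that 3 against 3 libraries allow. The summed level of the 4 genes was 201 to 500 in unchilled, 67.5 to 72.0 in chilled and 900 to 1342 in recovered libraries. A share does not depend on the scaling between libraries, but it does depend on gene length. As a share of the summed read counts, an alternative chosen after seeing the data, CmBCAT1 took 80.4 to 93.7% in unchilled, 33.0 to 37.9% in chilled and 96.7 to 98.4% in recovered libraries, and MELO3C030975.2 took 0.857 to 2.06%, 23.8 to 29.9% and 0.269 to 0.542%.

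**Figure D2:**
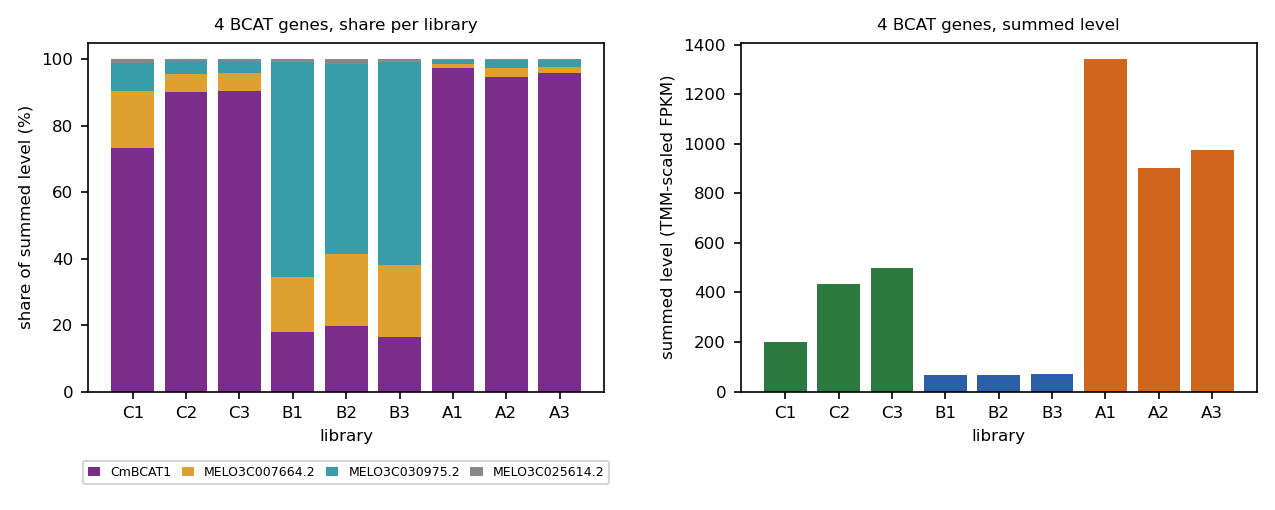
Left, share (%) of each of the 4 BCAT genes in their summed level in the 9 libraries (C unchilled, B chilled, A recovered). Right, that summed level (TMM-scaled FPKM); CmBCAT1 fills 73.2 to 97.3% of the bars of C and A and 16.4 to 19.6% of those of B, where the large share of MELO3C030975.2 rests on its gene length of 423 bases.

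CmArAT1 lies on chromosome 7 from 5071692 to 5075274 on the minus strand, with an exonic length of 2128 bases, and is described as a tyrosine aminotransferase. Its level was 40.6, 25.4 and 24.4 in unchilled, 4.36, 5.11 and 4.32 in chilled and 38.9, 58.1 and 31.0 in recovered replicates. Every chilled library lay far below the others, whose ranges overlapped. Chilled fruit was 6.55-fold below unchilled fruit (log2 fold change -2.71, SE 0.285, edgeR adjusted p 2.59e-05) and recovered fruit 9.27-fold above chilled fruit (log2 fold change 3.21, SE 0.289, edgeR adjusted p 8.76e-06). Recovered against unchilled fruit gave 0.50 on the log2 scale (95% interval -0.08 to 1.09, edgeR adjusted p 0.163), an interval that holds both no difference and a doubling.

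The BCAT-like gene MELO3C025614.2 begins 367 bases from CmArAT1 on the same strand, and both fell in chilled fruit and rose in recovered fruit. Counts of CmArAT1 were between 114 and 2308 and those of its neighbour between 14 and 156. Whether reads of 1 gene were counted for the other was not tested.

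The ArAT MELO3C013583.2, also described as a tyrosine aminotransferase, lies on chromosome 11 from 18248787 to 18252561 on the minus strand, with an exonic length of 1589 bases. It took the opposite course to CmArAT1, with levels of 33.1, 49.6 and 47.4 in unchilled, 78.6, 125.6 and 120.6 in chilled and 46.0, 35.3 and 47.1 in recovered replicates. The lowest chilled library stood above the highest of both other groups. The log2 fold change was 1.32 for chilled against unchilled (SE 0.217, edgeR adjusted p 0.000448), -1.34 for recovered against chilled (SE 0.217, edgeR adjusted p 0.000389) and -0.02 for recovered against unchilled fruit (95% interval -0.51 to 0.47, edgeR adjusted p 0.954). As for the BCAT above, library totals kept the direction of the first pair of values and ended both calls, at 0.83 and -0.84. Among the tested aminotransferases this gene ranked 15 in unchilled fruit, 6 when chilled and 13 after recovery. Its mean level exceeded that of CmArAT1 in unchilled fruit, 43.4 ± 8.95 against 30.1 ± 9.07, with libraries that overlapped, and stood at 108 ± 25.8 against 4.60 ± 0.447 in chilled fruit, where they did not.

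CmAADC1 lies on chromosome 3 from 4317484 to 4324850 on the minus strand, with an exonic length of 4363 bases. The table describes it as a serine decarboxylase and gives it the KEGG entry of histidine decarboxylase (K01590), whereas the study named it as an aromatic amino acid decarboxylase. In Arabidopsis, serine decarboxylase makes ethanolamine for membrane lipids and choline. Levels were 16.3, 18.5 and 18.2 in unchilled, 2.85, 3.71 and 3.98 in chilled and 11.96, 13.8 and 14.0 in recovered replicates. Replicates lay closer together than for CmArAT1 in unchilled and recovered fruit. In chilled fruit they did not, with an SD of 16.7% of the mean against 9.72% for CmArAT1. The 3 groups did not overlap, with recovered fruit between the others. Chilled fruit was 5.02-fold below unchilled fruit (log2 fold change -2.33, SE 0.134, edgeR adjusted p 3.73e-07), and recovered fruit 3.77-fold above chilled fruit (log2 fold change 1.91, SE 0.133, edgeR adjusted p 1.05e-06).

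After the day at about 22°C CmAADC1 was at 13.3 ± 1.13, below the 17.6 ± 1.17 of unchilled fruit in every library. This log2 difference of -0.41 (SE 0.125, 95% interval -0.70 to -0.13, edgeR adjusted p 0.0289) was under the fold threshold, and its adjusted p was 0.00718 to 0.0987 over the alternatives. Whether it differed from the corresponding value of CmArAT1 was not tested. The gene overlaps MELO3C008356.2 on the opposite strand, and no source used here gives the strand setting of the counting, so reads of the pair cannot be told apart by strand. The partner had 0 to 2 counts in a library.

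CmMGL lies on chromosome 6 from 33344396 to 33347215 on the minus strand, with an exonic length of 1683 bases. The table describes it as a cystathionine gamma-synthase, an enzyme of methionine synthesis, and gives it the KEGG entry of methionine gamma-lyase (K01761). Levels were 81.0, 67.4 and 76.3 in unchilled, 130.5, 103 and 91.2 in chilled and 47.7, 96.3 and 74.6 in recovered replicates. The chilled libraries were above the unchilled ones, but chilled and recovered libraries overlapped. The log2 fold change was 0.53 for chilled against unchilled (95% interval -0.01 to 1.07, edgeR adjusted p 0.0685), -0.57 for recovered against chilled (95% interval -1.11 to -0.03, edgeR adjusted p 0.0525) and -0.04 for recovered against unchilled fruit (95% interval -0.58 to 0.50, edgeR adjusted p 0.913). Library totals put the first pair of values at 0.03 and -0.06. Over the alternatives (edgeR, DESeq2 or limma) the adjusted p of chilled against unchilled fruit was 0.0124 to 0.942. That of recovered against chilled fruit was 0.00878 to 0.827. The log2 fold changes were 0.02 to 0.64 and -0.82 to -0.06, under the fold threshold, so the gene was not called in any of them. The gene had 1489 to 3029 counts a library, and changes of more than 1.11 on the log2 scale lie outside all 3 intervals.

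**Figure D3:**
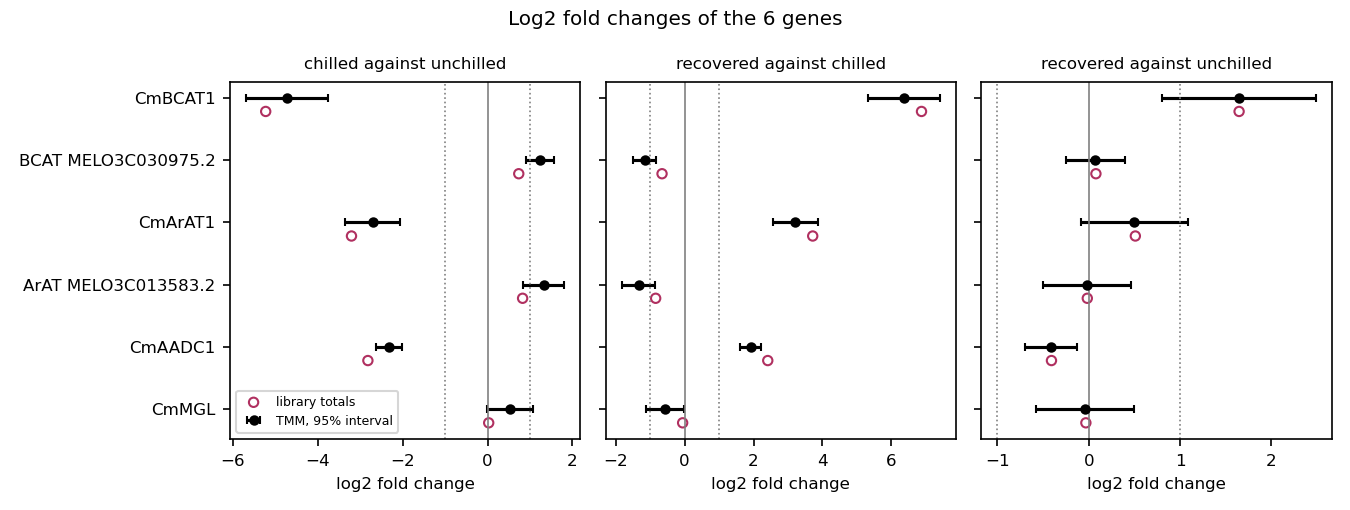
Log2 fold changes of the 6 genes in the 3 comparisons (TMM, filled points with 95% intervals; library totals, open points). Dotted lines mark the fold threshold of 1; CmBCAT1, CmArAT1 and CmAADC1 lie beyond it with either scaling in both comparisons with chilled fruit, whereas the open points of MELO3C030975.2 and MELO3C013583.2 lie inside it.

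Across the 9 libraries the courses of the 6 genes were set side by side as the root-mean-square difference of their log2(level + 1) values after each gene was centred on its own mean, a description with no test. MELO3C030975.2 differed by 0.321 from MELO3C013583.2 and by 0.356 from CmMGL. CmArAT1 and CmAADC1 differed by 0.619, CmBCAT1 and CmArAT1 by 1.52, and CmBCAT1 and MELO3C013583.2 by 3.24. Over all tested genes with a description, the nearest to CmBCAT1 were a cytochrome P450 71A1-like gene (MELO3C025798.2, 0.312), whose mean level was 141 in unchilled fruit, 3.68 when chilled and 275 after recovery, and a dihydroflavonol-4-reductase (MELO3C035246.2, 0.415). A potassium transporter (MELO3C002408.2, 0.184) was nearest to CmArAT1, a Rac-like GTP-binding protein (MELO3C019315.2, 0.0800) to CmAADC1, a phosphotransferase (MELO3C015416.2, 0.0715) to MELO3C030975.2, a RING/FYVE/PHD protein (MELO3C007205.2, 0.147) to MELO3C013583.2 and an E3 ligase (MELO3C005123.2, 0.144) to CmMGL. Next nearest were a ninja-family protein (MELO3C002034.2, 0.199) for CmArAT1, a nucleobase-ascorbate transporter-like protein (MELO3C016724.2, 0.0804) for CmAADC1, the dolichol kinase EVAN (MELO3C035466.2, 0.0781) for MELO3C030975.2, a subunit of the glutamyl-tRNA amidotransferase (MELO3C010821.2, 0.166) for MELO3C013583.2 and a pentatricopeptide repeat protein (MELO3C019751.2, 0.167) for CmMGL. Nearness is easier to reach for a gene that varies little, so that these distances compare less well between the 6. The 1 added to each level also shrinks changes of genes near 0. MELO3C002408.2 had mean levels of 7.94, 0.495 and 12.3 in unchilled, chilled and recovered fruit. For MELO3C019315.2 they were 4.27, 0.220 and 3.19.

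A later step in this route is the reduction of aldehydes such as phenylacetaldehyde to alcohols. The study named 8 phenylacetaldehyde reductase (PAR) genes from these libraries, so their directions are not independent of its choice. All 8 are described in the table as cinnamoyl-CoA reductases, the related enzyme of lignin synthesis, and all were tested. In chilled against unchilled fruit 0 were higher and 4 lower, and in recovered against chilled fruit 4 were higher and 1 lower. Recovered against unchilled fruit gave 0 higher and 2 lower. Of all tested genes, 48.3%, 50.4% and 12.8% were called in these comparisons, so the number called does not set the PAR genes apart. Library totals gave 7 lower in the first comparison, and 5 higher and 1 lower in the second.

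Low in chilled fruit and higher again in recovered fruit, like CmArAT1 and CmAADC1, were 4 PAR genes. MELO3C010188.2 had levels of 156 ± 12.2 (unchilled), 17.9 ± 2.01 (chilled) and 118 ± 19.7 (recovered), with log2 fold changes of -3.12 and 2.72 in the comparisons with chilled fruit. MELO3C023465.2 was at 91.6 ± 40.1, 10.6 ± 3.67 and 94.8 ± 17.9, with -3.11 and 3.16, and MELO3C020508.2 at 17.3 ± 2.15, 1.68 ± 0.285 and 9.07 ± 3.41, with -3.35 and 2.42. Each of these 3 was called in both comparisons under every alternative. MELO3C030668.2 fell furthest, from 24.5 ± 5.50 to 0.992 ± 0.528, and was at 4.78 ± 1.72 in recovered fruit, below unchilled fruit (log2 fold change -2.36, edgeR adjusted p 0.000903).

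MELO3C026745.2 had its lowest level in recovered fruit. It averaged 35.1 ± 14.9 in unchilled fruit, 10.9 ± 12.1 when chilled and 1.06 ± 0.603 after recovery, and recovered fruit was below unchilled fruit by a log2 fold change of -5.05 (edgeR adjusted p 0.00328). The chilled mean rests on replicate 1, at 24.8 against 3.41 and 4.42 in the other two. Its log2 fold change of -1.70 for chilled against unchilled fruit was not called (edgeR adjusted p 0.061). Without that replicate it was -3.16 and called, and recovered against chilled fruit moved from -3.35 to -1.89, still called. The remaining PAR genes, MELO3C016430.2 with 4.48, 8.32 and 5.64, MELO3C014584.2 with 51.4, 26.6 and 33.8 and MELO3C009963.2 with 13.6, 7.12 and 12.4 in unchilled, chilled and recovered fruit, were not called with TMM in any comparison. In chilled against unchilled fruit, MELO3C014584.2 was called without unchilled replicate 1 (log2 fold change -1.08) and MELO3C009963.2 without chilled replicate 1 (-1.30), and both were called without the filter on low values. MELO3C009963.2 was also called in recovered against chilled fruit without chilled replicate 1 (1.16).

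**Figure D4:**
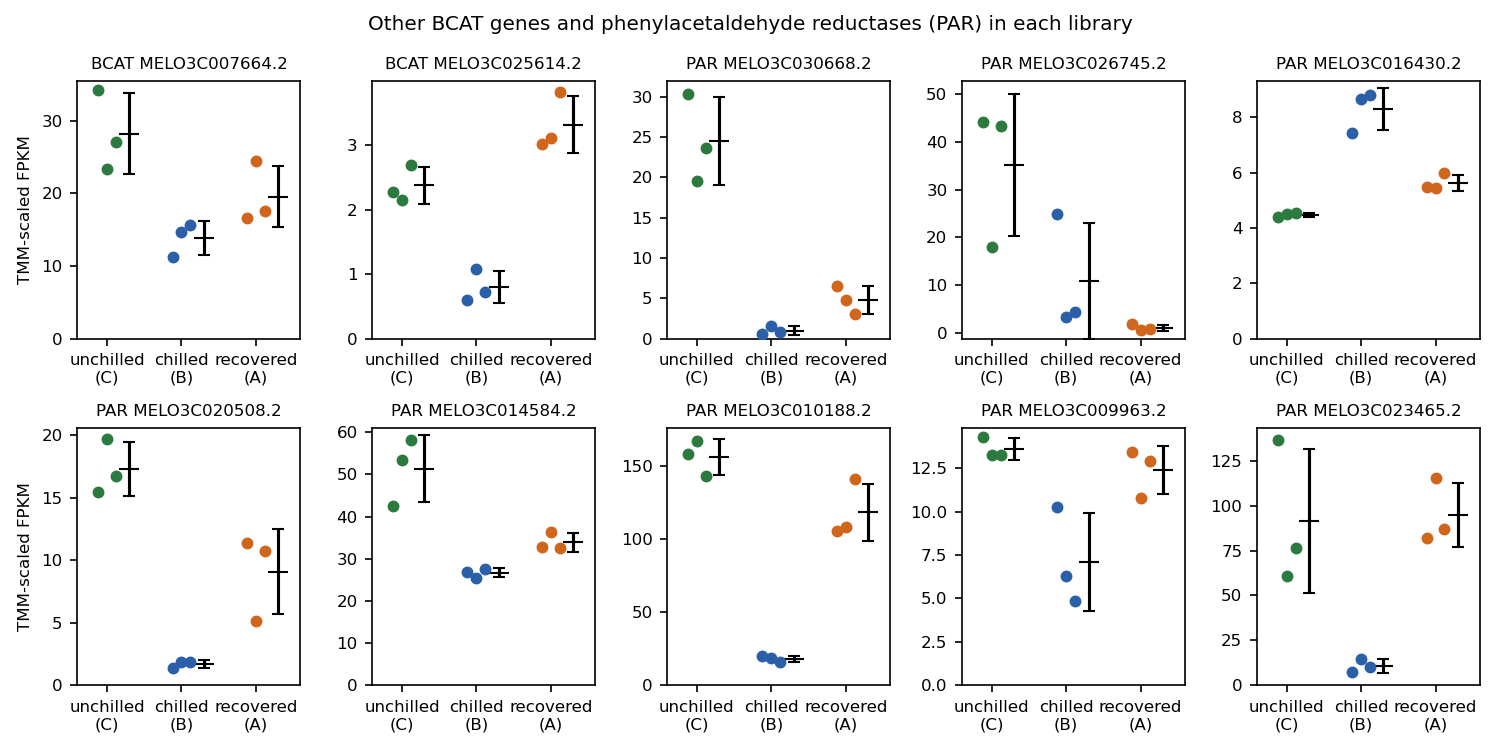
Level (TMM-scaled FPKM, linear axes that differ between panels) of the 2 further BCAT genes and the 8 PAR genes in the libraries of unchilled (C), chilled (B) and recovered (A) fruit, with the mean and SD of 3. MELO3C010188.2, MELO3C023465.2 and MELO3C020508.2 were low in every chilled library, and the chilled libraries of MELO3C026745.2 spread from 3.41 to 24.8.

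Genes around the 6 in amino acid metabolism were counted in 6 lists, each drawn from the descriptions by search words. Of the 46 tested aminotransferases, 4 of them among the 6 genes above, chilled against unchilled fruit gave 10 higher and 13 lower, 50.0% called in all beside 48.3% of all tested genes, and a median log2 fold change of 0.00, against -0.06 over all tested genes. Recovered against chilled fruit gave 12 higher and 11 lower (50.0% called, beside 50.4% of all tested genes). Recovered against unchilled fruit gave 2 higher and 4 lower (13.0% called, beside 12.8%). With library totals, 4 were higher and 15 lower in the first comparison and 14 higher and 6 lower in the second. CmBCAT1 had the lowest log2 fold change of the called aminotransferases of at least 10 TMM-scaled FPKM in chilled fruit and the highest in both comparisons of recovered fruit. At the other end of the recovered fruit lay an alanine:glyoxylate aminotransferase (MELO3C014568.2), at 10.8 ± 6.83, 26.5 ± 7.30 and 2.68 ± 1.25 in groups C, B and A.

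Of 14 tested decarboxylases of amino acids, 5 rose and 3 fell in chilled against unchilled fruit (57.1% called, beside 48.3% of all tested genes). In recovered against chilled fruit 3 rose and 6 fell (64.3% called, beside 50.4%). The search words also took in 6 genes for S-adenosylmethionine and phosphatidylserine decarboxylases, which act on other substrates than free amino acids. These 6 gave 4 higher and 0 lower in chilled against unchilled fruit, and 0 higher and 4 lower in recovered against chilled fruit. Among the 8 others, CmAADC1 included, 1 was higher and 3 were lower in chilled against unchilled fruit. In recovered against chilled fruit, 3 of the 8 were higher and 2 lower. An S-adenosylmethionine decarboxylase (MELO3C023787.2), an enzyme of polyamine synthesis, rose from 605 ± 34.5 to 2642 ± 461 and stood at 453 ± 36.6 in recovered fruit (log2 fold change 2.13 in chilled against unchilled fruit, SE 0.141, edgeR adjusted p 8.63e-07). A glutamate decarboxylase (MELO3C001938.2), which makes gamma-aminobutyric acid, followed the course of CmAADC1 at higher level, from 681 ± 171 to 60.1 ± 10.4 and then 617 ± 109. Its log2 fold changes were -3.50 (SE 0.235, edgeR adjusted p 1.05e-06) and 3.36. Another glutamate decarboxylase (MELO3C005224.2) took the reverse course, at 5.04 ± 2.35, 17.3 ± 1.35 and 0.760 ± 0.323. Recovered against unchilled fruit gave 0 higher and 3 lower of the 14 (21.4% called, beside 12.8%). Among them was an arginine decarboxylase (MELO3C023359.2, log2 fold change -1.40).

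Around CmMGL, 32 genes of methionine and cysteine metabolism were tested. In chilled against unchilled fruit 3 were higher and 14 lower (median -0.31, 53.1% called beside 48.3% of all tested genes). In recovered against chilled fruit 13 were higher and 7 lower (62.5% called beside 50.4%). In recovered against unchilled fruit 1 was higher and 2 were lower (9.38% called beside 12.8%). Homocysteine S-methyltransferases, which make methionine, were among the 32. MELO3C014294.2 had levels of 75.4 ± 40.5, 11.9 ± 1.74 and 181 ± 78.0 in groups C, B and A, and rose by 3.93 on the log2 scale from chilled to recovered fruit. MELO3C012247.2 was at 97.9 ± 71.9, 8.39 ± 1.90 and 9.03 ± 3.70, so that it did not return. Its log2 fold change of -3.55 in chilled and -3.44 in recovered against unchilled fruit became -2.77 and -2.66 without unchilled replicate 1, both still called. Cystathionine gamma-synthase 1 (MELO3C009845.2) was at 400 ± 45.7, 646 ± 74.0 and 958 ± 84.4, and had the highest log2 fold change of the list in recovered against unchilled fruit, 1.26. An adenosylhomocysteinase-like gene (MELO3C006291.2) had the highest log2 fold change of the list's called genes in chilled against unchilled fruit, 3.24. Its levels were low, at 1.17 ± 0.671, 11.03 ± 2.08 and 0.608 ± 0.311 in groups C, B and A.

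The substrates of CmBCAT1 are made by 1 route and broken down by another. Of 15 genes of branched-chain amino acid synthesis, 0 rose and 1 fell in chilled against unchilled fruit (6.67% called, median 0.29), beside 48.3% called over all tested genes. Recovered against chilled fruit gave 2 higher and 1 lower, and recovered against unchilled fruit 1 higher and 1 lower. 2-Isopropylmalate synthase (MELO3C020296.2), the committed enzyme of leucine synthesis, was at 24.0 ± 5.23, 39.6 ± 8.36 and 79.7 ± 10.9, with a log2 fold change of 1.73 in recovered against unchilled fruit. Its 1.01 against chilled fruit lost the call without chilled replicate 1 (0.84), recovered replicate 2 or recovered replicate 3. Of 9 genes of branched-chain amino acid breakdown, 0 were higher and 4 lower in chilled against unchilled fruit (44.4% called beside 48.3%, median -0.46). In recovered against chilled fruit 3 were higher and 0 lower (33.3% called beside 50.4%), so neither number called stands above that of all tested genes. A methylmalonate-semialdehyde dehydrogenase (MELO3C007705.2), of valine breakdown, was at 15.1 ± 1.43, 5.30 ± 0.362 and 16.2 ± 1.69. Among the 3-hydroxyisobutyryl-CoA hydrolase-like genes, also of valine breakdown, MELO3C016959.2 was at 14.1 ± 0.846, 6.59 ± 1.52 and 20.3 ± 1.27, and MELO3C026972.2 at 73.5 ± 15.0, 31.4 ± 6.07 and 29.0 ± 0.510.

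For the substrates of CmArAT1, 48 genes were taken up by the words of aromatic amino acid synthesis. In chilled against unchilled fruit 5 were higher and 14 lower (median -0.55, 39.6% called beside 48.3% of all tested genes). In recovered against chilled fruit 14 were higher and 5 lower (39.6% called beside 50.4%). In recovered against unchilled fruit 5 were higher and 9 lower (29.2% called beside 12.8%). Library totals gave 3 higher and 26 lower in chilled fruit. The words also matched 7 caffeoylshikimate esterases and hydroxycinnamoyl transferases, which belong to lignin synthesis, and these included both ends of the list in each comparison with chilled fruit. MELO3C002421.2 and MELO3C023822.2, both caffeoylshikimate esterases, were at 1.84 ± 1.12 and 2.48 ± 0.975 in unchilled, 78.5 ± 17.3 and 13.8 ± 7.07 in chilled, and 7.91 ± 3.05 and 0.865 ± 0.0952 in recovered fruit. The hydroxycinnamoyl transferases MELO3C004373.2 and MELO3C027219.2 were at 13.1 ± 1.62 and 137 ± 12.6, 1.03 ± 0.148 and 86.8 ± 21.9, and 5.91 ± 2.67 and 284 ± 22.3. Without the 7, 41 genes gave 3 higher and 12 lower in chilled against unchilled fruit. They gave 10 higher and 3 lower in recovered against chilled fruit, and 2 higher and 7 lower in recovered against unchilled fruit. A phospho-2-dehydro-3-deoxyheptonate aldolase (MELO3C007744.2), the entry enzyme of the shikimate pathway, was at 127 ± 63.5, 19.1 ± 6.04 and 13.8 ± 2.22 and did not return in recovered fruit (log2 fold change -3.20 against unchilled fruit). An anthranilate synthase (MELO3C035072.2), of tryptophan synthesis, was at 5.75 ± 1.81, 6.83 ± 0.649 and 12.7 ± 2.09, and its call in recovered against unchilled fruit was lost without unchilled replicate 3 (log2 fold change 0.91).

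**Figure D5:**
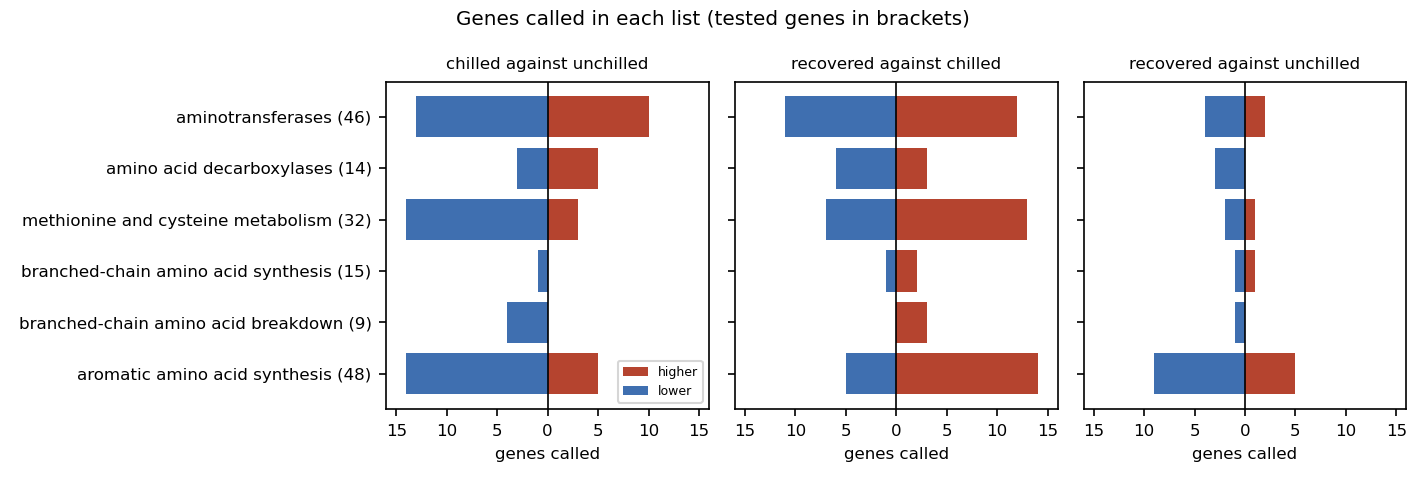
Number of genes called higher (red) and lower (blue) in each of 6 lists of amino acid metabolism, with tested genes in brackets, in the 3 comparisons. Branched-chain amino acid synthesis had 1 gene called of 15 in chilled against unchilled fruit, and 48.3% of all tested genes were called there.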

How the data were processed

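RNA-seq read counts and FPKM per gene for the 9 libraries were deposited by the authors in 1 table, without replicates being pooled. The authors' reads were trimmed and aligned, per the submitters' notes with cutadapt 1.15 and HISAT2 2.0.5, and the deposited counts carry no normalization. The deposited FPKM equal count per length and library total, with a largest difference of 4.5e-11. The table names no genome build, and the study's methods name DHL92, so coordinates are printed as deposited. All value columns were used.

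Counts were tested with edgeR 4.0.16 (R 4.3.3; robust quasi-likelihood fit, TMM, all 9 libraries in 1 fit, no block) on genes with a mean FPKM above 1, with Benjamini-Hochberg adjustment over all of them. SE is the absolute log2 fold change over the square root of F. Alternatives were DESeq2 1.42.0, its size factors applied in edgeR, scaling by library totals, no filter, limma 3.58.1 on log2(FPKM + 1 or 0.1), a replicate block, other thresholds, BCAT shares by read counts and leaving out each library. The script was tested on simulated counts with few changed genes, equally many up and down, which cannot check the choice of scaling.

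Besides the 6 genes, named genes are those of the study's amino acid route, the 2 nearest in course per gene, and the extreme called gene of at least 10 TMM-scaled FPKM per list and comparison. Members and lists were chosen with earlier results of these data known.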

Additional observations from a re-analysis of the deposited data

How the results depend on the processing

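CmBCAT1, CmArAT1 and CmAADC1 kept their calls and directions in both comparisons with chilled fruit under every alternative, and CmBCAT1 also against unchilled fruit. MELO3C030975.2 and MELO3C013583.2 lost theirs under library totals and under limma on log2(FPKM + 1) and log2(FPKM + 0.1), which use FPKM per library total. Each of these 3 settings left 3 genes of 6 called in chilled against unchilled fruit (0 higher, 3 lower) and 3 in recovered against chilled fruit (3 higher). With no fold-change threshold, 11326, 11578 and 5494 genes were called in chilled against unchilled, recovered against chilled and recovered against unchilled fruit, and the last comparison then called 2 of the 6 genes, with CmAADC1 at -0.41 (adjusted p between 0.00718 and 0.0987 over the alternatives).

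Leaving out 1 library at a time gave 7136 to 7262, 7389 to 7585 and 1638 to 1980 genes called, and 5, 5 and 1 of the 6 genes. The share of CmBCAT1 in the BCAT sum then differed by -72.2 to -63.6, 77.1 to 78.7 and 5.77 (without unchilled replicate 1) to 14.3 percentage points. By read counts in place of levels per length, an alternative chosen after seeing the data, it differed by -53.2 percentage points between chilled and unchilled and 61.5 between recovered and chilled fruit.

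Signs turned only in recovered against unchilled fruit, for log2 fold changes near 0 that were not called. That of MELO3C013583.2 became 0.0264 with DESeq2, 0.0263 with its size factors and 0.0115 with the replicate block, and ran from -0.196 to 0.1015 with 1 library left out. That of CmMGL became 0.0074 with DESeq2 or its size factors and ran from -0.2926 to 0.1903 with 1 library left out. That of MELO3C030975.2 ran from -0.0448 to 0.1645.

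Groups share replicate numbers in the labels, but same-numbered libraries did not deviate together (correlations from -0.137 to 0.149), so the numbers were not taken to pair samples. With the replicate block 7227, 7549 and 1855 genes and 5, 5 and 1 of the 6 genes were called. Nothing in the labels says that replicates came from separate batches of plants, so p-values measure the spread between these libraries. The lowest count among the 6 genes was 114, for CmArAT1 in a chilled library.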
